A study of Mus musculus with 6 samples.

Results

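Metallothioneins and the genes that handle cellular zinc were followed in fetal liver of mouse embryos with and without Tmod3. The 7 genes were Mt1, Mt2, Mt3, Mt4, Mtf1, Slc30a1 and Slc39a14, out of 19938 genes with a symbol of their own on the array. They were chosen by name, with earlier results of these data known. The probe set of each gene was to be selected on its mean level over all 6 arrays. Each of the 7 had only 1 probe set, so the mean level decided no probe set. The samples were 3 livers of Tmod3-/- embryos, labelled as anemic with a small liver, and 3 livers of Tmod3+/+ embryos labelled normal, all at E14.5 and of strain C57BL/6J. Tmod3 encodes tropomodulin 3, which caps the pointed ends of actin filaments, and the labels give no cell type or tissue in which the loss is restricted. Per the series text each liver came from an independent embryo. Total RNA was hybridised to Affymetrix MoGene 1.0 ST arrays, and all values below are the deposited log-scale values, read as log2.

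Metallothioneins are small proteins rich in cysteine that bind zinc and copper, and fetal liver is known as a tissue where Mt1 and Mt2 are strongly expressed and hold a store of zinc. The transcription factor encoded by Mtf1 senses free zinc in the cell and binds metal response elements in the promoters of Mt1, Mt2 and Slc30a1. Slc30a1 encodes the zinc exporter of the plasma membrane, and Slc39a14 encodes an importer of zinc, iron and manganese. Mt3 is known mainly from brain and Mt4 from stratified epithelia.

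The 4 metallothionein genes lie side by side on chromosome 8 of GRCm38.p6, in the order Mt4, Mt3, Mt2 and Mt1, over 43.1 kb from position 94137204 to 94180327. Mt1 lies at chr8:94178883-94180327 and Mt2 at chr8:94172618-94173567, with 5315 bases between them. Promoter sequences of RefSeq (GRCm38.p6), from 250 bases before to 50 bases after a transcription start, were used for 6 of the 7 genes; that of Slc39a14 was not used here. The start they are built on is the first base of the gene for Mt2, Mt3, Mt4 and Mtf1, but lies 206 bases inside the gene for Mt1, at 94179089, and 84 bases inside it for Slc30a1, at 191906781. The promoters of the genes described as targets of the zinc sensor, Mt1, Mt2 and Slc30a1, are printed to show the elements it is known to bind, and that of Mt3 as the neighbour in the cluster. Capitals mark the core of the metal response element, TGCGCNC or TGCACNC, on either strand. All 4 genes are on the plus strand, at chr8:94178839-94179138 for Mt1, chr8:94172368-94172667 for Mt2, chr1:191906531-191906830 for Slc30a1 and chr8:94152357-94152656 for Mt3.
Mt1: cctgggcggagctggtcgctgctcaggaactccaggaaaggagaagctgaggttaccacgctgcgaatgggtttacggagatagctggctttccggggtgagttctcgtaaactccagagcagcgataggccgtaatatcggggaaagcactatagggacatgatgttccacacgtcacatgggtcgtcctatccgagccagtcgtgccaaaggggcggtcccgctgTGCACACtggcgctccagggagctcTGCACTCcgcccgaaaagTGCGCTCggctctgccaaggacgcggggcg
Mt2: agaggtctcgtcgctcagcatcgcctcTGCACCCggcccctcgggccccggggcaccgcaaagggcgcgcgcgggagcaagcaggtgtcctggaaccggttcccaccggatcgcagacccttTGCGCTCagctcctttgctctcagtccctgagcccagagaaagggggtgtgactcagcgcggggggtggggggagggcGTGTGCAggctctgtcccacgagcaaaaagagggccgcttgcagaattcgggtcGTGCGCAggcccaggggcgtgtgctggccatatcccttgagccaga
Slc30a1: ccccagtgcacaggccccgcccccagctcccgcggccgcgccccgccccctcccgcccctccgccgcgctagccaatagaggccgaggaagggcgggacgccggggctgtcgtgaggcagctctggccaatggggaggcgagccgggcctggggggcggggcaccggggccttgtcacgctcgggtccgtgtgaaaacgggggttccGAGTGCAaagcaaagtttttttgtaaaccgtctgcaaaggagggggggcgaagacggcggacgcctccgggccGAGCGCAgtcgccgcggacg
Mt3: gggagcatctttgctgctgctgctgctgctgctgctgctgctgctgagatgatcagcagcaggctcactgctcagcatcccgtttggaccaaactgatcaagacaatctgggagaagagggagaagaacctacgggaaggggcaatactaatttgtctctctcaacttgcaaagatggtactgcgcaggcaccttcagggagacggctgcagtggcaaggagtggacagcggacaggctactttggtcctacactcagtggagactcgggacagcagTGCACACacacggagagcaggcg

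The Mt2 promoter held 4 cores and the Mt1 promoter 3, none overlapping another. Among all 32851 promoters of this length, 0.295% held at least 4 and 1.31% at least 3. In Mt1 the cores all read on the plus strand and began at -23, 2 and 20 bases from the start that its window is built on, counted as 0. Another start would shift these positions and the window. In Mt2 they began at -223, -128, -50 and 4, and those at -50 and 4 read on the minus strand. Slc30a1 had 2 cores, both on the minus strand, at -43 and 30, and 6.14% of all promoters had at least 2. Mt3 had 1 core, at 27, and Mt4 had 1, at -91, and 25.7% of all promoters had at least 1. No core was present in this window of Mtf1. A core is a description of the letters and not a measured binding site.

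**Figure D1:**
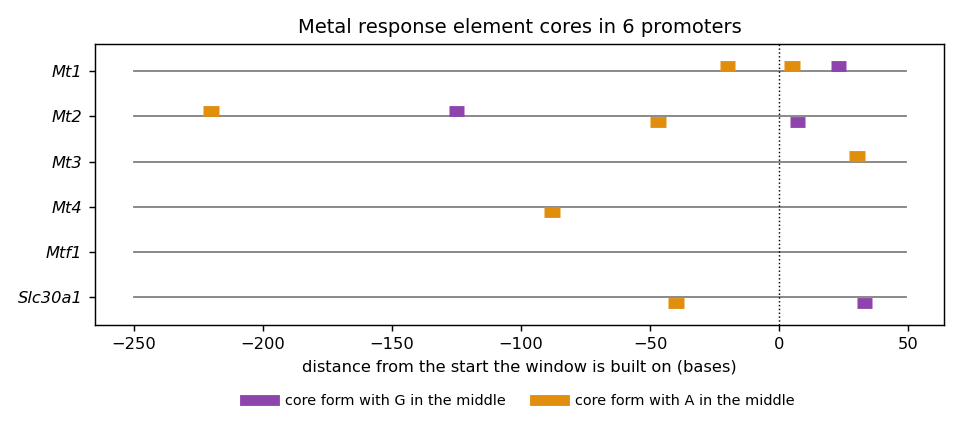
Positions of metal response element cores in the promoters of 6 genes, with the distance in bases from the start each window is built on along the horizontal axis and 1 grey line per gene from 250 bases before to 50 bases after the start. Blocks above a line are plus strand matches and blocks below are minus strand matches, coloured by the base in the middle of the core; Mt2 shows 4, Mt1 3, Slc30a1 2, Mt3 and Mt4 1 each and Mtf1 0.

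Loss of Tmod3 was checked first. Tmod3 read 1.32, 2.36 and 1.30 without the gene and 4.49, 4.78 and 4.90 with it, a log2 difference of -3.06 (limma adjusted p = 0.0225), and no array went against its label. Array medians lay between 1.36 and 1.43, and values near these are close to the floor of the measurement. Over all genes the median log2 difference of knockout minus wild type was 0.01, and over the 2545 genes whose mean was 3 or higher it was -0.25. Replicate arrays correlated at 0.978 to 0.990, and the number of arrays, 3 per group, limits every value.

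Mt1 was measured at a 2.07-fold and Mt2 at a 2.05-fold higher level in knockout than in wild type liver, while Mt3, Mt4, Mtf1, Slc30a1 and Slc39a14 had differences between -0.05 and 0.13 on the log2 scale. None of the 7 genes passed an adjusted p of 0.05 (limma, Benjamini-Hochberg over all genes), a threshold that 0.0150% of all genes passed. At an unadjusted limma p under 0.05 the count was 2 of 7, Mt1 and Mt2, both higher in knockout, where 9.03% of all genes lay under that value in either direction and 2.59% with the knockout higher. The same 2 of 7 had all knockout arrays above all wild type arrays, as had 6.14% of all genes. Because the 7 genes were named with earlier results of these data known, these counts are no independent support.

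In replicate order, Mt1 read 8.34, 8.94 and 7.90 in the knockout and 6.99, 7.59 and 7.43 in the wild type. The lowest knockout array lay 0.30 above the highest wild type array, so the groups did not overlap. The mean level was 8.39 ± 0.52 against 7.34 ± 0.31 (SD, n = 3 each). The log2 difference was 1.05 with a standard error of 0.26, a 2.07-fold higher level with a 95% confidence interval of 1.36 to 3.15. The limma adjusted p was 0.299 and lay between 0.146 and 0.694 over 13 alternative analyses, all of which kept the knockout higher. The two-sided exact permutation p was 0.1, the smallest that 3 against 3 arrays can give.

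Mt2 read 10.11, 10.26 and 9.44 in the knockout arrays and 8.73, 9.19 and 8.78 in the wild type arrays. These groups did not overlap either, with a gap of 0.25 between the lowest knockout and the highest wild type array. The level was 9.94 ± 0.44 against 8.90 ± 0.25 (SD, n = 3 each). The log2 difference was 1.04 with a standard error of 0.22, a 2.05-fold higher level with a 95% confidence interval of 1.44 to 2.93. The limma adjusted p was 0.229, with a range of 0.124 to 0.671 over the 13 alternatives, all with the knockout higher, and the exact permutation p was again 0.1.

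**Figure D2:**
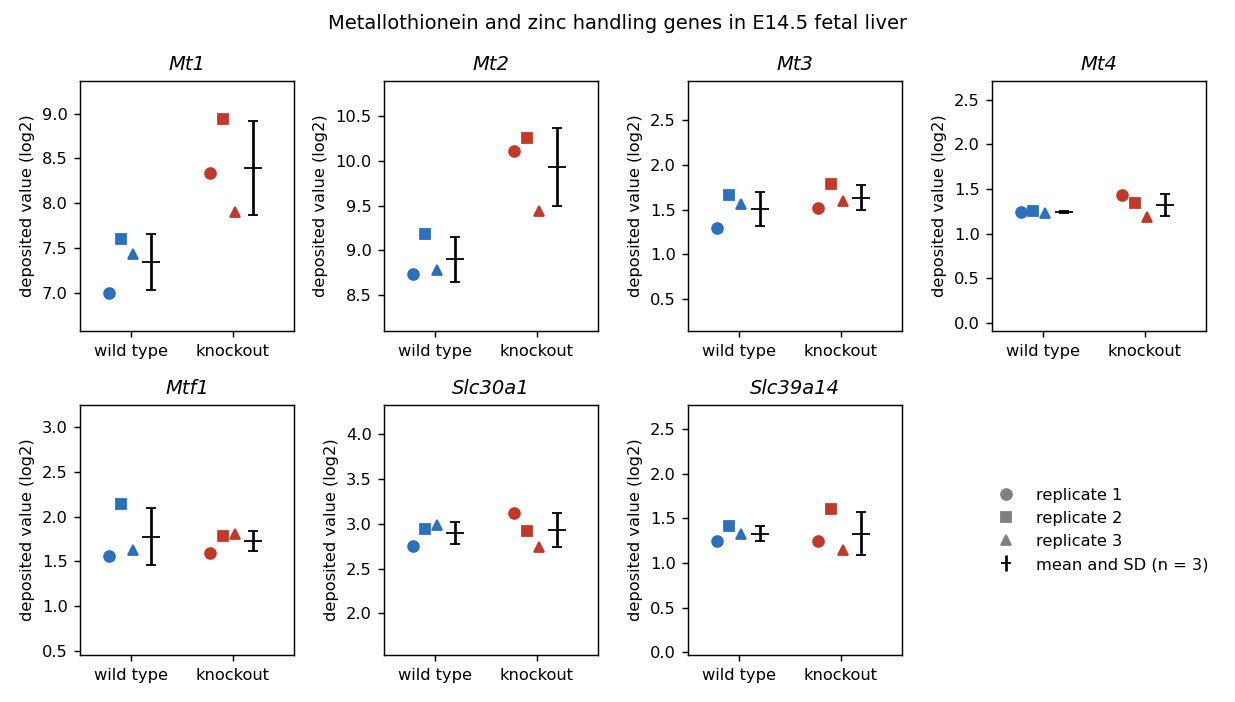
Deposited log2 value of each of the 7 genes in the 3 wild type (blue) and 3 knockout (red) arrays, 1 panel per gene, all panels spanning the same range of log2 units around the gene's own level; marker shapes give the replicate and black bars the mean and SD (n = 3). The red points of Mt1 and Mt2 all lie above the blue ones, and in the other panels the groups overlap.

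Both genes ranked the arrays in the same order. Knockout replicate 2 was highest, knockout replicate 1 next and knockout replicate 3 lowest of the knockout arrays, and among wild type arrays replicate 2 was highest and replicate 1 lowest. The difference of Mt2 minus Mt1 was 1.54 ± 0.23 in knockout against 1.56 ± 0.20 in wild type arrays (SD, n = 3 each), so the pair kept its spacing across genotypes within the spread of the arrays. The probe sets of the pair carry separate gene symbols, but their probe sequences were not used here, and signal shared between such similar transcripts was not tested. Of all genes, 14 had a log2 difference of 1 or more (0.0702%); Mt1 was number 12 and Mt2 number 14 in that order, and 11 of the 14 had a mean of 3 or higher. Both stood above the median of such genes, which was below 0.

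**Figure D3:**
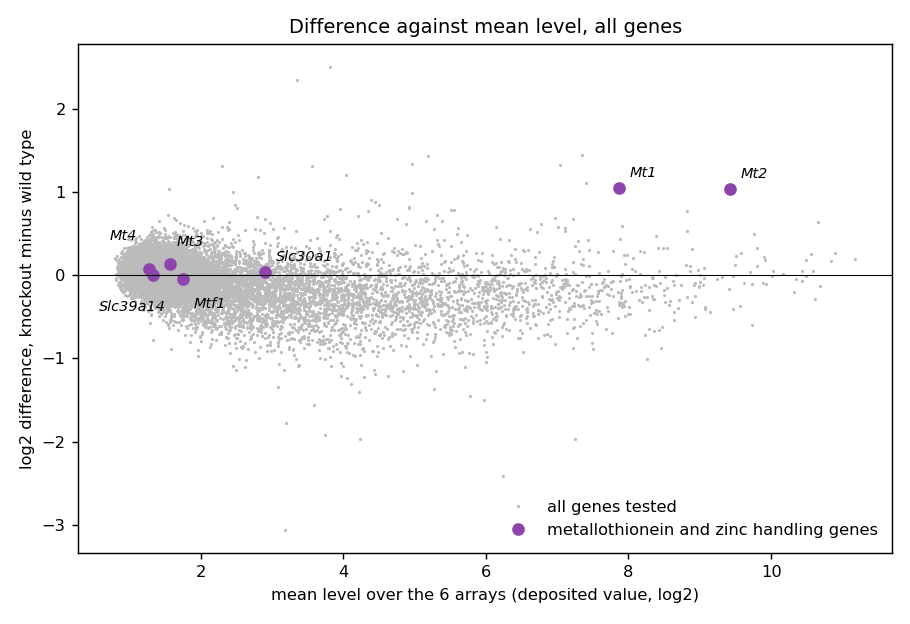
Log2 difference of knockout minus wild type (vertical axis) against the mean level over the 6 arrays (horizontal axis, deposited log2 value) for all 19938 genes in grey and the 7 metallothionein and zinc handling genes in purple. Mt1 (1.05) and Mt2 (1.04) lie at the right among bright genes and above the cloud, and the other 5 lie near 0 and at lower mean levels.

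The other metallothioneins were dim. Mt3 read 1.52, 1.79 and 1.59 in knockout and 1.29, 1.66 and 1.56 in wild type liver, and Mt4 read 1.43, 1.34 and 1.18 against 1.24, 1.25 and 1.23. Both overlapped between groups and lay around the array medians, Mt3 above its array's median on 5 of 6 arrays and Mt4 on 1. The log2 difference was 0.13 for Mt3 (95% interval -0.17 to 0.43) and 0.08 for Mt4 (95% interval -0.16 to 0.32), with limma adjusted p of 0.838 and 0.889. Differences inside these intervals were not detectable with 3 arrays per group.

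Mtf1, the gene of the zinc sensor itself, at chr4:124802549-124849800, read 1.60, 1.79 and 1.80 in knockout and 1.56, 2.15 and 1.62 in wild type liver. Only wild type replicate 2 stood apart from the other arrays. The log2 difference was -0.05 with a 95% interval of -0.43 to 0.33 (limma adjusted p = 0.962). Without wild type replicate 2 the difference was 0.14, and without knockout replicate 1 it was 0.02, so its sign was not settled. The array measures Mtf1 transcript and not the activity or location of the protein.

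Slc30a1, the exporter that shares the zinc sensor with the metallothioneins, at chr1:191906697-191913248, read 3.12, 2.92 and 2.75 in knockout and 2.75, 2.95 and 2.98 in wild type liver. All 6 arrays lay above their medians and the groups overlapped throughout. The log2 difference was 0.03 with a 95% interval of -0.26 to 0.33 (limma adjusted p = 0.964). Its sign turned when the arrays were centred on their medians (-0.0029) and without knockout replicate 1 (-0.06) or wild type replicate 1 (-0.04). Renewed quantile normalization moved it to 0.21. The upper end of the interval lies below the lower end for Mt1 (0.45) and for Mt2 (0.52), and the difference between these genes was not tested.

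Slc39a14, at chr14:70303467-70351452, read 1.25, 1.60 and 1.14 in knockout and 1.25, 1.41 and 1.32 in wild type liver, above the array median on 2 of 6 arrays. The log2 difference was 0.0025 with a 95% interval of -0.31 to 0.32 (limma adjusted p = 0.998), and its sign turned under 5 alternatives. The groups overlapped, and at a signal this close to the floor a small change was not detectable.

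None of the other zinc transporter genes passed. The SLC30 family moves zinc out of the cytosol, into vesicles or out of the cell, and the SLC39 family brings it in. Of 9 further SLC30 genes and 13 further SLC39 genes, all measured, 0 of 22 passed (limma adjusted p between 0.623 and 0.998), and 0 of 22 had an unadjusted p under 0.05. The median log2 difference was -0.0028, with 11 genes above 0 and 11 below, against 0.01 over all genes. In 22 of 22 the 95% interval ended below 1.04, the log2 difference of Mt2. Only 3 of the 22 had a mean of 3 or higher, and the lowest mean was 1.08. Signal close to the floor can keep a difference small, so this count says little about the dim transporters. The interval of Mt2 itself ran from 0.52 to 1.55, and the highest upper end among the 22 was 1.02, so intervals overlapped. No difference between Mt2 and these genes was tested. Slc39a12 had no overlap between groups, at a level below the array medians, and 13.2% of all genes had none in either direction.

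Slc39a10, which encodes an importer, had the smallest p of the 22 and read 1.87, 2.01 and 2.15 in knockout and 1.77, 1.45 and 1.93 in wild type liver, a log2 difference of 0.29 (limma adjusted p = 0.623). Slc30a10, known as a manganese exporter, read 3.28, 3.46 and 3.57 against 3.44, 4.07 and 3.80, a difference of -0.33 (limma adjusted p = 0.628). Both overlapped between groups. Slc30a9 had a difference of 0.25 and Slc39a8, an importer of zinc and manganese, -0.26, and these 2 with Slc30a10 were the 3 transporters of the 22 whose mean reached 3. Over all 22 the 95% intervals spanned -0.72 to 1.02.

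**Figure D4:**
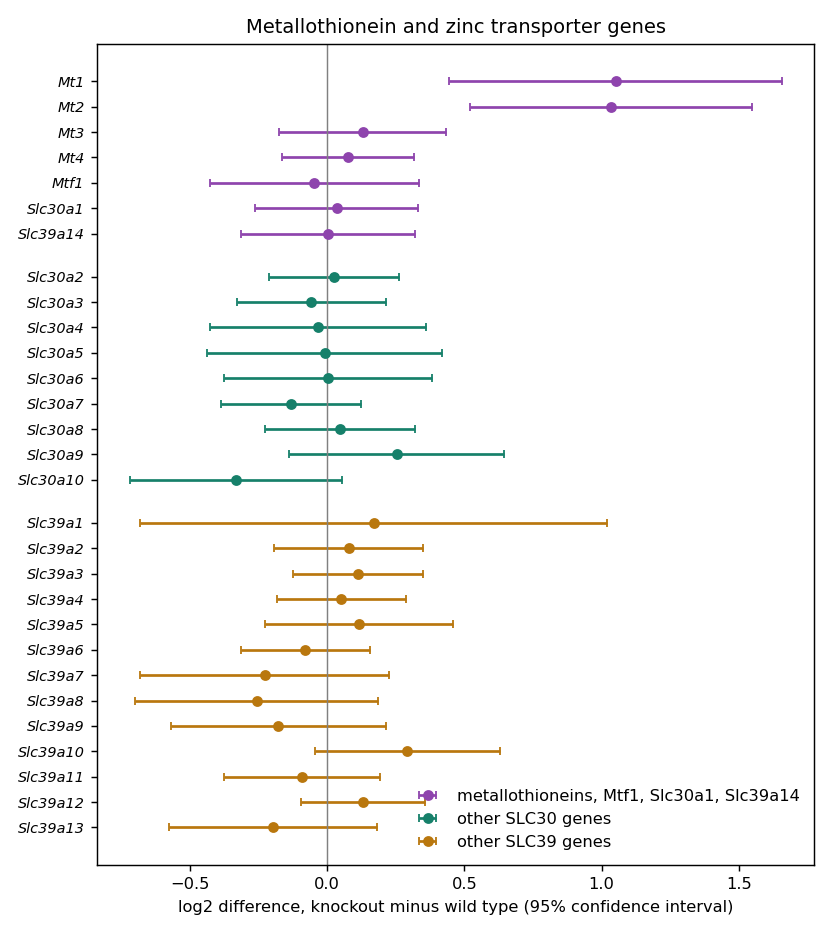
Log2 difference of knockout minus wild type (horizontal axis) with its 95% confidence interval from limma for the 7 genes (purple), 9 other SLC30 genes (green) and 13 other SLC39 genes (orange). The intervals of Mt1 and Mt2 lie wholly above 0 before adjustment over all genes, and those of the other 27 genes include 0.

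Other genes described as responding to metals were read next. Of 6 measured, 0 passed (limma), 4 were above 0 and 2 below, with a median log2 difference of 0.12, or 0.27 without knockout replicate 3. Hspa1a, an inducible heat shock protein, read 3.15, 3.87 and 1.88 in knockout and 1.54, 1.59 and 1.81 in wild type liver, a difference of 1.32 (limma adjusted p = 0.408). Hmox1, which encodes the heme-degrading enzyme heme oxygenase 1, read 4.65, 4.79 and 2.94 against 3.61, 3.73 and 3.65, a difference of 0.46 (limma adjusted p = 0.817). In both genes knockout replicates 1 and 2 were high and knockout replicate 3 was not; the groups overlapped in Hmox1, and in Hspa1a knockout replicate 3 lay just above the wild type arrays. Gclc, for glutathione synthesis, had a difference of -0.17.

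Copper is the other metal that metallothioneins bind, and 0 of 11 measured genes of copper handling passed (limma), with a median of -0.03. The copper importer gene Slc31a1 had the smallest p and read 2.24, 2.23 and 2.14 against 2.51, 2.28 and 2.93, a difference of -0.37 (limma adjusted p = 0.562). Of 11 measured genes of the NRF2 and oxidative stress list, 0 passed (limma), with a median of -0.0083. Nfe2l2, the gene of NRF2 itself, read 3.77, 3.89 and 3.99 in knockout and 4.15, 4.65 and 4.28 in wild type liver, a difference of -0.47 (limma adjusted p = 0.396), and its groups did not overlap.

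Glucocorticoids, interleukin 6 and low oxygen are known inducers of Mt1 and Mt2, and their other targets were read beside them. Of 13 glucocorticoid response genes, 0 passed (limma) and the median difference was -0.01. Their mean levels ran only from 1.17 to 2.30, and 0 of the 13 reached 3. For those close to the floor a small change was not detectable, which limits what this median can show. Fkbp5, a co-chaperone of the receptor and one of its targets, read 2.68, 2.37 and 2.49 against 1.82, 2.16 and 2.25, a difference of 0.44 with no overlap (limma adjusted p = 0.416). The remaining 12 genes had an unadjusted p above 0.05. Of 17 acute phase and interleukin 6 genes, 0 passed (limma), with a median of -0.09 and 7 above 0 against 10 below. Without knockout replicate 3 that median was 0.03.

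Hamp, of the acute phase list, encodes hepcidin and read 5.42, 5.09 and 3.07 in knockout and 2.31, 2.04 and 2.20 in wild type liver. The knockout arrays lay above the wild type arrays, with knockout replicate 3 the nearest to them, as for Mt1 and Mt2, and the log2 difference was 2.35 (limma adjusted p = 0.252). Crp, which encodes C-reactive protein, differed by -0.68 (limma adjusted p = 0.407) and the fibrinogen gene Fgb by -0.81 (limma adjusted p = 0.545). Members of this list thus lay on both sides of 0.

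Of 16 low oxygen response genes, 0 passed (limma), but 11 had an unadjusted p under 0.05 with the knockout higher, as had 2.59% of all genes. The median was 0.53, with 12 genes above 0 and 4 below, and the differences ran from -0.19 to 1.43. Several of these genes are known already from these arrays to be higher in knockout, so the list is no independent support. Vegfa read 2.82, 2.83 and 3.08 in knockout and 2.01, 2.09 and 2.11 in wild type liver, a difference of 0.84 (limma adjusted p = 0.103). The list averaged 3.34, 3.72 and 3.51 on the knockout arrays, in replicate order, against 2.79, 2.93 and 3.11 on the wild type arrays, so knockout replicate 2 was highest here as for Mt1 and Mt2, while knockout replicate 1 was lowest. The part of low oxygen in the levels of Mt1 and Mt2 was not tested. The core of the hypoxia response element, ACGTG or GCGTG on either strand, occurred 2 times in the promoters of both Mt1 and Mt2, and 17.3% of all promoters held it at least 2 times.

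In bulk tissue, fewer cells of a type and less RNA per cell cannot be told apart. Hepatocyte markers were read because hepatocytes are the known main site of Mt1 and Mt2 in fetal liver. Afp, between 10.38 and 10.75, and Alb, between 8.74 and 10.12, were read strongly. Mean levels over all measured markers of the list ran from 1.60 to 10.59. Of 13 measured hepatoblast and hepatocyte markers 12 had a lower mean in knockout and 0 passed (limma). The marker that was not lower was Afp, with a difference of 0.04. At an unadjusted p under 0.05 there were 6, all lower in knockout, as were 6.44% of all genes. The median difference was -0.60, against -0.25 over the genes whose mean was 3 or higher, to which 12 of the 13 belong. Averaged over the list, and in replicate order, knockout liver gave 6.30, 6.42 and 5.52 against 6.39, 6.67 and 6.81 in wild type liver. Knockout replicate 3, lowest of the knockout arrays in Mt1 and Mt2, was also lowest in this list.

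Mt1 and Mt2 had higher means in knockout liver, and the hepatocyte list a lower one, which rested largely on knockout replicate 3. The list mean differed by -0.55, and by -0.27 without that array, and its median by -0.26; knockout replicate 2 lay above wild type replicate 1. Mt1 minus the hepatocyte list mean was 2.32 ± 0.25 against 0.71 ± 0.18 (SD, n = 3 each), with knockout arrays from 2.04 to 2.53 and wild type arrays from 0.60 to 0.92. For Mt2 it was 3.86 ± 0.06 against 2.28 ± 0.28 (SD, n = 3 each). With no list mean taken off, the log2 difference of Mt1 itself was 1.30 without knockout replicate 3, and that of Mt2 itself was 1.28.

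Marker lists of other liver cells were read in the same way. The erythroid list had 10 of 10 measured genes below 0 with a median of -0.43, and its mean per array lay between 4.33 and 4.69 in knockout and between 4.72 and 5.17 in wild type liver. The macrophage list had 11 of 12 below 0 (median -0.30, list means 1.65 to 2.15 against 2.07 to 2.44), and its median was -0.19 without knockout replicate 3. The endothelial list had 8 of 10 above 0 (median 0.12, list means 1.82 to 1.98 against 1.71 to 1.82), and the granule list of neutrophils 4 of 9 (median -0.02, list means 2.34 to 2.87 against 2.44 to 2.72). A mean of 3 or higher was reached by 8 of the 10 erythroid and 2 of the 12 macrophage genes. It was reached by 0 of the 10 endothelial and 2 of the 9 neutrophil genes. Over all genes at that level the median was -0.25. In each of these lists 0 genes passed (limma), and the part of cell composition in the levels of Mt1 and Mt2 was not tested. No list held a marker at 0, since the deposited values end at 0.44.

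**Figure D5:**
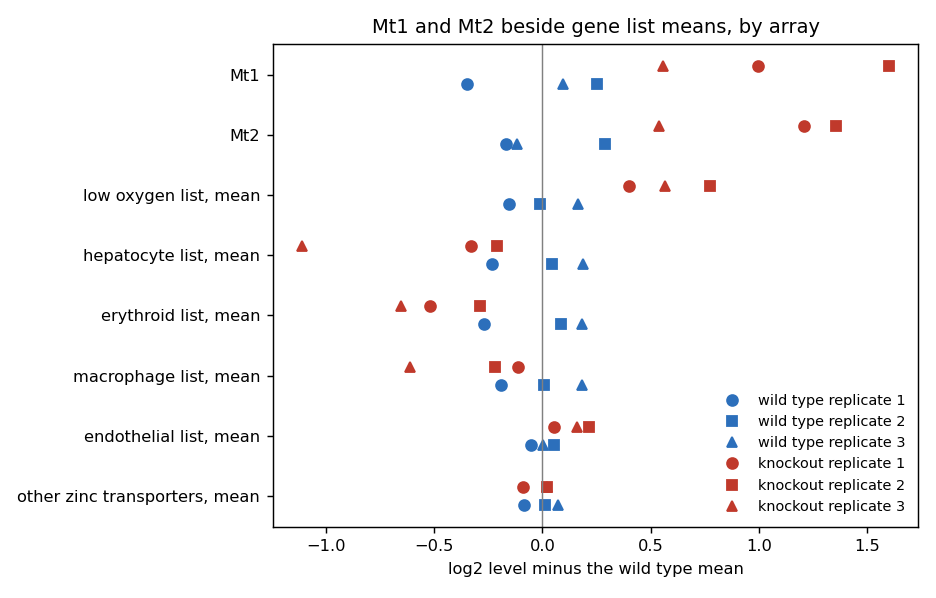
Level of Mt1, Mt2 and the mean of 6 gene lists on each array, as the log2 difference from the wild type mean (horizontal axis), with knockout arrays in red, wild type arrays in blue and shapes for the replicate. The knockout points of Mt1, Mt2 and the low oxygen list lie right of all wild type points. Those of the endothelial list do so narrowly (lowest knockout 1.818, highest wild type 1.816, before the wild type mean is taken off). The knockout points of the erythroid list lie left of its wild type points. Knockout replicate 3 is the lowest point of the hepatocyte list (5.52 before the wild type mean is taken off).

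The genes whose levels followed Mt1 and Mt2 most closely were taken from the 2545 genes of mean 3 or higher, by Pearson correlation over the 6 arrays. Genes with Riken, predicted-gene, clone-style or pseudogene names were left out of the ranking, but not of the counts at 0.9. These values describe only the order and spacing of 6 arrays, and any gene with a group difference scores high. For Mt1 they were Clint1 (0.983), Mt2 (0.962), Igfbp1 (0.959), Nampt (0.957) and Bnip3 (0.957), and 15 of 2544 genes reached 0.9. For Mt2 they were Rps25 (0.983), Rbm33 (0.973), Mt1 (0.962), Rpl22 (0.954) and Igfbp1 (0.951), and 12 of 2544 reached 0.9. The other metallothionein of the pair was among the 5 closest of the genes ranked in both cases.

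With the group means taken off, the correlation of Mt1 with Mt2 was 0.870 over the 6 arrays. For Mt1 it was 0.967 with Clint1, an adaptor protein gene of clathrin-coated vesicles, and 0.863 with Igfbp1, whose product is secreted by liver and binds insulin-like growth factors. Igfbp1 read 5.18, 6.15 and 3.85 in knockout and 2.42, 2.46 and 2.82 in wild type liver, a log2 difference of 2.50 that ranked first among genes higher in knockout (limma adjusted p = 0.202). Nampt, the rate-limiting enzyme of NAD salvage, had 0.68 (limma adjusted p = 0.401), and Bnip3, a mitochondrial protein gene of mitophagy, 1.43 (limma adjusted p = 0.261). In Igfbp1 knockout replicate 2 was highest and knockout replicate 3 lowest of the knockout arrays, the order seen in Mt1 and Mt2. For Mt2 the ribosomal protein gene Rps25 had a difference of 0.26 (limma adjusted p = 0.487). A gene with a far smaller difference thus followed Mt2 most closely among the genes ranked. Rps25 had 6 probe sets and Rbm33 had 3, and only the brightest of each entered the ranking.

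The genes next to the cluster were read to see whether the difference reached beyond it. Of the 5 nearest protein-coding genes on each side, 0 of 10 passed (limma) and the log2 differences lay between -0.52 and 0.07 with a median of -0.08. Nudt21, which encodes a subunit of the cleavage factor of mRNA 3' ends, read 5.64, 5.53 and 5.51 in knockout and 5.63, 6.18 and 6.44 in wild type liver, a difference of -0.52 (limma adjusted p = 0.481) with overlap between wild type replicate 1 and knockout replicate 1. Nudt21 had 2 probe sets, and the brighter one, read here, gave the lowest of the 10 differences. Where that probe set lies in the genome was not checked. Nup93, the nearest gene beyond Mt1 and a nucleoporin gene, had -0.35, and Slc12a3 had -0.20 (limma adjusted p = 0.698 and 0.658). No neighbour lay near the differences of Mt1 and Mt2, and the dim neighbours Mt3 and Mt4 lie within the cluster itself.

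Other genes with many metal response element cores were read beside Mt2. A promoter was held for 15614 of the genes tested. Besides Mt2, 64 genes had at least 4 cores in a promoter. Their median log2 difference was -0.03 against 0.0022 over all genes with a promoter. By count, 0 of the 64 passed (limma) and 0 had a difference of 1 or more. Among all 15614 the counts were 1 and 11, so 0 of 64 cannot tell these genes from the rest. Of the 64, 1.56% had an unadjusted p under 0.05 with the knockout higher, against 2.47% of all genes with a promoter. By overlap, 10.9% of the 64 had all knockout arrays above all wild type arrays, against 5.96% of all genes with a promoter. By number of cores the median was 0.0072 for 0, -0.0080 for 1, -0.02 for 2 and -0.0040 for 3. The counts of cores come from 300 bases per promoter and from letters alone.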

How the data were processed

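Biotin-labelled RNA, made from 6 ug of total RNA per the labels' protocols, of 6 fetal livers was measured on 1 array each. Each array has 1 deposited value per probe set; the submitters' processing notes name RMA (no version). No source used here gives the log base, and log2 was taken for the deposited values because the highest value of an array is at most 6451 from base 2 and at least 127417 from base e, past the scanner limit of 65535. The scale of every difference rests on that reading.

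Of 28853 probe sets, 21789 had 1 gene symbol in the platform annotation, 1621 had several and 5443 were not named there. The brightest probe set stood for each of 19938 genes. The comparison of the groups used lmFit and eBayes of limma 3.58.1 (R 4.3.3; two-sided, no covariate), adjusted by Benjamini-Hochberg over all genes, with no filter on dim genes. The fit was tested on simulated data. The genes and lists were chosen with earlier results of these data known. Beside the 7 genes, up to 4 genes per list with the smallest p, the 5 genes most like Mt1 and Mt2, and up to 4 neighbours of the cluster could be named; Alb and Afp were named after their values were seen, to check the tissue. Replicates are separate embryos per the series text. Arrays have no read depth. Alternatives were array weights, a threshold of 0.1, median centring, 1 array left out at a time, a replicate block, a repeated quantile step, a robust fit with an intensity trend, the mean of probe sets and a filter on dim genes; gene list means without each array were added after seeing the data.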

Additional observations from a re-analysis of the deposited data

How the results depend on the processing

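Mt1 and Mt2 were higher in knockout liver under all 13 alternatives for the difference, and neither passed in any of them; leaving out 1 array moved Mt1 between 0.78 and 1.30 and Mt2 between 0.87 and 1.28 on the log2 scale. The number of genes called among all genes was 3, and it was 0 with the replicate block, 6 after renewed quantile normalization, 11 with array weights and 0 to 95 when 1 array was left out, the highest without wild type replicate 1 and the lowest without wild type replicate 2. None of these calls was among the 7 genes or the 22 other zinc transporters. At a threshold of 0.1 the count was 4.

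The replicate numbers did not pair the arrays: the correlation of deviations from the group means was 0.107, 0.0566 and -0.105 for numbers 1, 2 and 3, and not every array correlated best with its own number. With the replicate block the difference stayed 1.05 for Mt1 (limma adjusted p = 0.295) and 1.04 for Mt2 (0.259).

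Differences near 0 turned sign. Without 1 array, Mtf1 ranged from -0.15 to 0.14, Slc30a1 from -0.062 to 0.13 and Slc39a14 from -0.13 to 0.097. The cause of these turns was not tested. Slc30a1 was -0.0029 after median centring. Slc39a14 was -0.039 after renewed quantile normalization, -0.034 after centring and -0.031 with array weights. The filter on dim genes removed Mt4 and Slc39a14, which gives no value there. Signal near the array medians limits Mt3, Mt4, Mtf1 and Slc39a14. Without knockout replicate 3 the list medians near 0 also turned sign, to 0.03 for copper handling, 0.04 for the NRF2 list and 0.11 for neutrophil markers. Leaving out other arrays turned some too. The NRF2 median was 0.0081 without wild type replicate 1 and 0.024 without wild type replicate 3. The neutrophil median was 0.07 without wild type replicate 3, and that of the metal-responsive list was -0.11 without knockout replicate 2.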
